A study of Homo sapiens with 2 samples.

Results

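Splicing regulators that set apart epithelial and mesenchymal cells were read in 2 RNA-seq libraries of cells labelled OVCAR-3, an established human ovarian carcinoma line. The group holds 10 genes (RBFOX2, QKI, ESRP1, ESRP2, MBNL1, MBNL2, PTBP1, PTBP2, CELF1 and SRSF1) of the 28038 genes in the table, chosen by symbol with their values in these libraries already known. The control culture carried a blank viral vector (the vector library), and the other culture was made to overexpress IGF2BP3, which binds mRNA and reads the m6A mark (the IGF2BP3 library). There was 1 library per group, with 43190215 counts in the vector library and 48017861 in the IGF2BP3 library, so no p-value was computed and each ratio compares these 2 libraries. How the virus drove expression, and whether the cultures were clones or pools, is not given in the sources used here. IGF2BP3 itself had 2944 counts in the vector library and 6376 in the IGF2BP3 library, a 1.96-fold difference.

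Alternative splicing lets a gene give different proteins in different cell states. In epithelial cells ESRP1 and ESRP2 bind GU-rich sequence beside certain exons and hold genes such as FGFR2, CTNND1 and ENAH in their epithelial isoforms. As cells become mesenchymal the ESRP genes are shut off. RBFOX2, which binds GCAUG in introns, and QKI, a STAR-domain protein that binds ACUAA, take part in switching some exons to the mesenchymal form. MBNL, PTB, CELF and SR proteins act on overlapping sets of exons, often against each other. The files give 1 value per gene and no exon or isoform, so they show the levels of the regulators and not the splicing they control.

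Several members belong to families of close relatives, and how far relatives differ in sequence bears on whether a short read can be given to the right gene. The coding windows below are shown for that reason. Each is the stretch of 90 coding bases in which a pair is most alike, taken from GENCODE release 29 transcripts on GRCh38, written 5′ to 3′ on the coding strand with the bases that differ within the pair in capitals.
RBFOX2: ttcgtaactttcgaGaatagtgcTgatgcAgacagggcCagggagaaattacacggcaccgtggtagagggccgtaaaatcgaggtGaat
RBFOX1: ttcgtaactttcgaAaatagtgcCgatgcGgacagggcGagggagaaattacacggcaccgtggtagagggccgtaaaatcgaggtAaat
PTBP1: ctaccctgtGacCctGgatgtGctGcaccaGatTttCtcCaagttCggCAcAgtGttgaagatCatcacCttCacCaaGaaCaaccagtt
PTBP2: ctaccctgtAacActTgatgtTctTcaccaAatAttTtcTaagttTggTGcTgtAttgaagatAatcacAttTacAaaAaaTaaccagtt
MBNL1: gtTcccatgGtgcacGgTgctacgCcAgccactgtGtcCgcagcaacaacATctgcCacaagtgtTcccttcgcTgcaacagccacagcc
MBNL2: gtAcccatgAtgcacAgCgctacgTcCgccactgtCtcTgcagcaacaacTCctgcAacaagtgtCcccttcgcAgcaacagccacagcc
The RBFOX2 window lies in 2 exons at chr22:35765478-35768340 on the minus strand and the RBFOX1 window at chr16:7595558-7597376 on the plus strand. The PTBP1 window lies at chr19:804672-804887, that of PTBP2 at chr1:96777719-96777894, that of MBNL1 at chr3:152447773-152456355 and that of MBNL2 at chr13:97365171-97366547, all on the plus strand and each in 2 exons.

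RBFOX2 and RBFOX1 differ at 5 of these 90 bases, MBNL1 and MBNL2 at 13, and PTBP1 and PTBP2 at 20. Over the aligned coding sequence the identity was 69.6% for RBFOX2 and RBFOX1, 70.3% for RBFOX2 and RBFOX3, 66.9% for PTBP1 and PTBP2 and 72.2% for MBNL1 and MBNL2. The longest identical run was 47 bases between RBFOX2 and RBFOX1 and 11 to 17 bases in the other pairs. Of the 31-base words in RBFOX2 transcripts, 0.167% also occur in transcripts of another gene. That share was below 2% for every member except SRSF1, where 53% of the words are shared, with the annotated gene AC015813.2 on the same strand. That gene has no row in the table used here, so the SRSF1 count is uncertain.

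RBFOX2 was the member with a large difference. RBFOX2 (ENSG00000100320, GRCh38 chromosome 22, 35738736 to 36028425, minus strand) had 531 counts, 12.3 CPM (the share of the library in parts per 1000000, after TMM scaling), in the vector library. In the IGF2BP3 library it had 1651 counts, 34.5 CPM. The ratio was 2.81, with a 95% exact counting interval of 2.55 to 3.11, which covers counting error only. Counts from 1 to 20 were even in 64.1% of cases in the vector library and 63.3% in the IGF2BP3 library, so the interval was also taken from halved counts, and it was then 2.45 to 3.25. For RBFOX2 the log2 fold change in the authors' deposited table is 1.48.

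On the log2 scale of CPM plus 1 the RBFOX2 difference was 1.42, which ranked 32nd from the top of the 14157 measured genes, those with a sum of at least 50 counts. It was 0.92 as the log2 ratio of the authors' FPKM plus 1, where the added constant weighs more. Of all measured genes, 1.02% were at least 1.5-fold higher, 0.643% at least 1.5-fold lower and 1.66% past that fold in either direction. At 2-fold the shares were 0.381% higher, 0.297% lower and 0.678% in either direction. Among the 8 members past the count minimum, RBFOX2 alone was at least 1.5-fold higher and none was 1.5-fold lower, and since the members were chosen with these values known, nothing is read from that share. In the plot of all measured genes RBFOX2 lies well above the band that holds the other members.

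**Figure D1:**
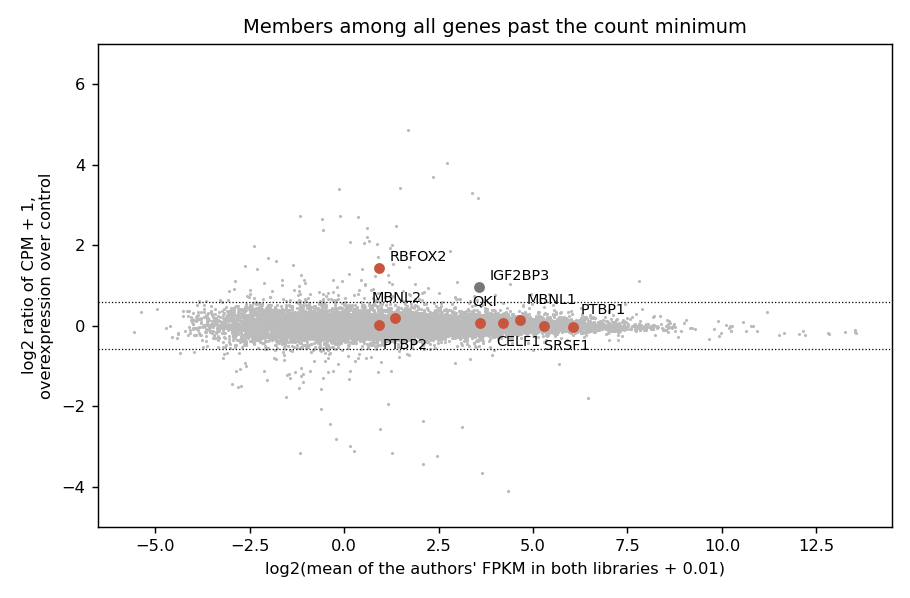
Each grey point is 1 of the 14157 genes with at least 50 counts, by the log2 of its mean FPKM (x axis) and its log2 ratio of CPM plus 1, IGF2BP3 library over vector (y axis). Orange points are the 8 measured members, the dark grey point is IGF2BP3 and dotted lines mark 1.5-fold. RBFOX2, at 1.42, lies above the upper line and the other 7 members lie between -0.04 and 0.19.

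Per gene length, RBFOX2 was at 0.996 FPKM (fragments per kilobase, scaled to depth) in the vector library and 2.78 in the IGF2BP3 library. It moved from rank 11168 to rank 8340 among the listed genes, and so stayed a gene of low level. None of its exon bases is shared with another gene in GENCODE release 29. The length implied by the deposited count and FPKM was 12348 bases, against 10014 exon bases in that release, so the authors' gene model was not the union of exons of that release and an overlap within it was not tested.

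The other RBFOX genes had few counts or none. RBFOX3, the neuronal paralog known as NeuN, had 18 counts in the vector library and 10 in the IGF2BP3 library, with a counting interval of the ratio from 0.207 to 1.15. RBFOX1, of brain, heart and muscle, has no row in the table used here. RBFOX2 was thus 24.1 times the RBFOX3 level per gene length in the vector library and 135 times in the IGF2BP3 library.

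The genes around RBFOX2 did not share its difference. Of 15 measured genes within 1 Mb of it, 5 were above 0 and 10 below, with a median log2 ratio of -0.02. APOL1, an apolipoprotein gene whose start is 224.6 kb from that of RBFOX2, was the only one past 1.5-fold (this and the next neighbours were named after their values were seen), with 356 counts in the vector library and 619 in the IGF2BP3 library, a ratio of 1.57 (1.38 to 1.80). APOL6, on the other side, had a ratio of 1.26 (1.17 to 1.36). MYH9, the non-muscle myosin heavy chain, stood at 877 CPM in the vector library and 865 in the IGF2BP3 library. No neighbour reached 2-fold.

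**Figure D2:**
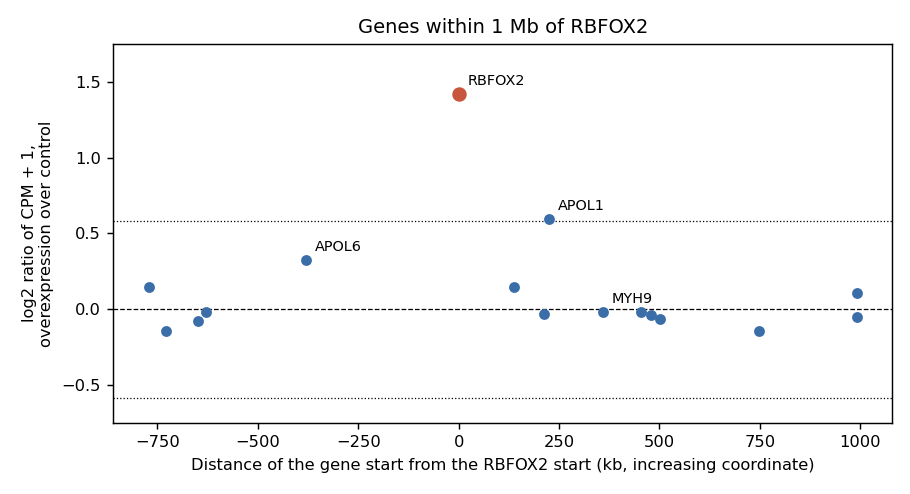
Points are the measured genes within 1 Mb of RBFOX2, by the distance of their start from the RBFOX2 start in kb (x axis) and their log2 ratio of CPM plus 1 (y axis), with dotted lines at 1.5-fold. RBFOX2 is at 1.42, APOL1 at 0.60, APOL6 at 0.32 and the others between -0.15 and 0.15.

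The genes nearest to RBFOX2 in their pair of log2(FPKM plus 1) values over the 2 libraries were DNAJA3, HLA-T, GEMIN8P4, GTF2H1 and ACACA, at distances of 0.10 to 0.26. DNAJA3, a mitochondrial co-chaperone, went from 0.989 FPKM in the vector library to 2.52 in the IGF2BP3 library. GTF2H1, a subunit of the transcription factor TFIIH, went from 1.26 to 3.21 FPKM, and ACACA, the acetyl-CoA carboxylase, from 0.676 to 2.95. HLA-T and GEMIN8P4 are pseudogenes, the former with 22 and 54 counts and the latter with 37 and 88. With 2 libraries, likeness means only a similar level in each.

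QKI, the other mesenchymal regulator, was nearly level between the libraries. QKI (ENSG00000112531, chromosome 6, 163414000 to 163578596, plus strand) had 8881 counts, 205 CPM, in the vector library and 10255 counts, 214 CPM, in the IGF2BP3 library. The ratio was 1.05 (1.02 to 1.08, and 1.00 to 1.09 from halved counts). Its log2 ratio of 0.06 became -0.01 once the median of genes of similar length was removed, a check added after seeing the data. Per gene length QKI was at 11.8 FPKM in the vector library and 12.3 in the IGF2BP3 library. RBFOX2 was at 0.0841 times the QKI level in the vector library and 0.226 times in the IGF2BP3 library.

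The epithelial regulators ESRP1 and ESRP2 had almost no counts in either library. ESRP1 (ENSG00000104413, chromosome 8, 94641074 to 94707466, plus strand) had 10 counts in the vector library and is listed at 0 in the IGF2BP3 library. The 95% counting interval of the ratio ends at 0.404 and that from halved counts at 0.988, so the counts set hardly any lower bound on the size of the difference. ESRP2 (ENSG00000103067, chromosome 16, 68229111 to 68238102, minus strand) had 2 counts and then 10, a ratio of 4.53 (0.965 to 42.5). Both stayed below the count minimum, their values pointed in opposite directions, and neither can be ranked against the measured genes.

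Per gene length ESRP1 was at 0.0475 FPKM in the vector library, and ESRP2 at 0.00892 FPKM in the control and 0.0401 in the IGF2BP3 library. The summed level of RBFOX2 and QKI was 12.8 FPKM in the vector library and 15.1 in the IGF2BP3 library, against 0.0564 and 0.0401 for the ESRP genes. The mesenchymal pair thus stood at 228 times the epithelial pair in the vector library and 376 times in the IGF2BP3 library, a ratio that rests on 12 and 10 ESRP counts. A count near 0 in this table is not by itself a sign that a gene was silent. HNRNPL and POLR2A, which every cell uses, had 0 and 2 counts and 11 and 17 counts, and PRPF31, a core spliceosome gene, had 10 and 7 (named after their values were seen). In bulk RNA, fewer cells that express a gene and less RNA per cell cannot be told apart.

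**Figure D3:**
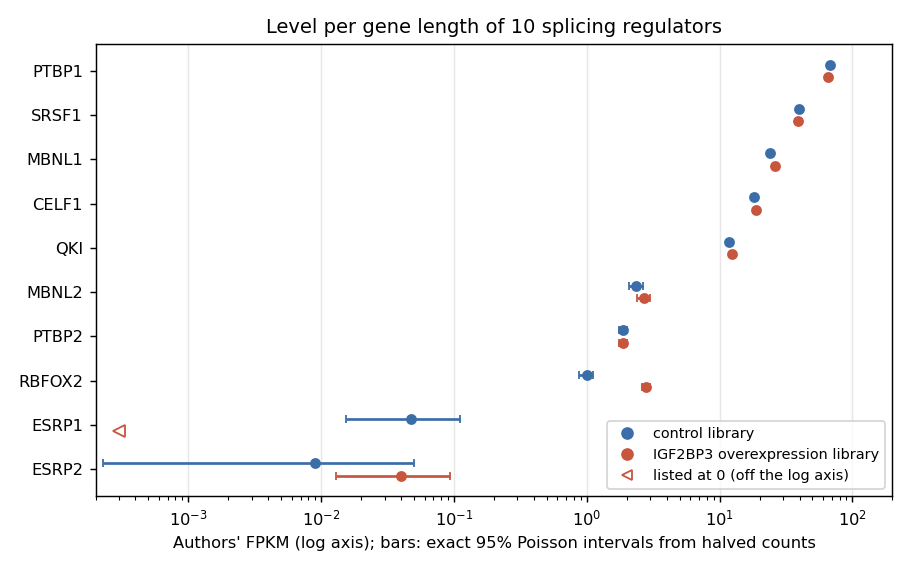
The authors' FPKM of the 10 genes is on a log axis, with the vector library in blue and the IGF2BP3 library in orange, and bars give exact 95% Poisson intervals from halved counts. RBFOX2 moves from 0.996 to 2.78 FPKM, 7 genes keep nearly the same level in both libraries, and both ESRP genes lie below 0.1 FPKM, with ESRP1 in the IGF2BP3 library listed at 0.

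Muscleblind proteins bind GC words flanked by pyrimidines and promote adult and differentiated splice forms. MBNL1 (ENSG00000152601, chromosome 3, 152243828 to 152465780) had 10305 counts, 238 CPM, in the vector library and 12513 counts, 261 CPM, in the IGF2BP3 library. Its ratio was 1.10 (1.06 to 1.14 from halved counts), and its log2 ratio of 0.14 became 0.07 with the length median removed. MBNL1 shares 15.6% of its exon bases with genes on the other strand, among them MBNL1-AS1 with 343 and 399 counts, and the strand setting of the count is not given. MBNL2 (ENSG00000139793, chromosome 13, 97221434 to 97394120) had 528 counts in the vector library and 670 in the IGF2BP3 library. Its ratio was 1.15 (1.02 to 1.29), and the interval from halved counts, 0.975 to 1.36, held 1. The MBNL1 level per gene length was 10.2 times that of MBNL2 in the vector library and 9.72 times in the IGF2BP3 library.

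MBNL3, the third muscleblind gene, differed more than either, with 738 counts, 17.0 CPM, in the vector library and 1060 counts, 22.1 CPM, in the IGF2BP3 library. The ratio was 1.30 (1.14 to 1.49 from halved counts). At 1.31 and 1.70 FPKM it was the lowest MBNL gene per gene length.

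PTBP1 binds pyrimidine-rich sequence and represses neuronal exons, and PTBP2 takes its place in developing neurons. PTBP1 (ENSG00000011304, chromosome 19, 797075 to 812327) had 22081 counts, 510 CPM, in the vector library and 23795 counts, 497 CPM, in the IGF2BP3 library. The ratio was 0.976 (0.958 to 0.994), and the interval from halved counts, 0.951 to 1.00, reached 1. PTBP2 (ENSG00000117569, chromosome 1, 96721665 to 96823738) was level, with 1630 counts, 37.6 CPM, and 1812 counts, 37.9 CPM, a ratio of 1.01 (0.941 to 1.08). PTBP1 stood at 36.2 times the PTBP2 level per gene length in the vector library and 35.1 times in the IGF2BP3 library.

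PTBP3, also called ROD1, was the family member that differed. It had 6506 counts, 150 CPM, in the vector library and 9320 counts, 195 CPM, in the IGF2BP3 library, a ratio of 1.30 (1.24 to 1.36 from halved counts). The PTBP1 level per gene length was 3.72 times that of PTBP3 with the vector and 2.80 times with IGF2BP3. PTBP3 and MBNL3 were thus the relatives whose intervals lay above 1 from halved counts, and SF1, a branch point binding protein, was the one below, at 0.945 (0.906 to 0.985). Of all measured genes, 15.9% had such an interval above 1, 10.9% below and 26.8% on either side.

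CELF1 binds GU-rich words, often acting against MBNL proteins, and also speeds the decay of some transcripts. CELF1 (ENSG00000149187, chromosome 11, 47465933 to 47565569) had 8244 counts, 190 CPM, in the vector library and 9599 counts, 201 CPM, in the IGF2BP3 library. The ratio was 1.05 (1.01 to 1.10 from halved counts), and its log2 ratio of 0.08 became 0.01 with the length median removed. CELF2 to CELF5 had between 0 and 35 counts in each library, and CELF6 has no row in the table used here. SRSF1, a founding SR protein that promotes exon inclusion and is known as an oncogene, had 9882 counts, 228 CPM, in the vector library and 10773 counts, 225 CPM, in the IGF2BP3 library. Its ratio (ENSG00000136450, chromosome 17, 58003360 to 58007346) was 0.987 (0.960 to 1.01), subject to the shared sequence given above.

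**Figure D4:**
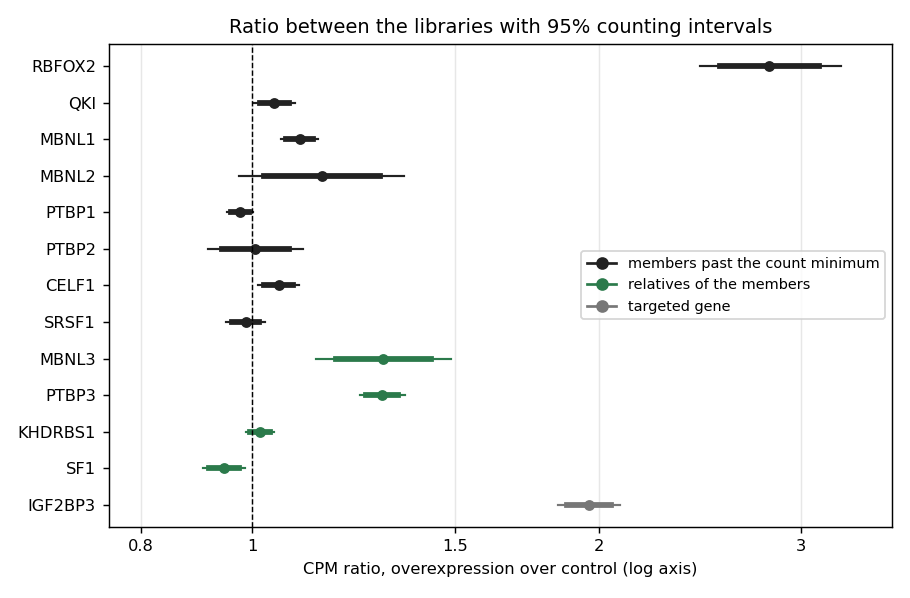
Points give the CPM ratio, IGF2BP3 library over vector, on a log axis, with thick bars for the 95% counting interval and thin bars for that from halved counts. RBFOX2, at 2.81, stands above IGF2BP3, at 1.96, while the other 7 members lie between 0.976 and 1.15 and the relatives PTBP3 and MBNL3 both lie at 1.30.

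Over the 8 measured members, the counting interval lay above 1 in 5, below 1 in 1 (PTBP1) and held 1 in 2, beside 22.8% above, 18.6% below and 41.4% on either side among all measured genes. The halved-count interval lay above 1 in 4 (RBFOX2, QKI, MBNL1 and CELF1), below 1 in none, and held 1 in 4. Log2 ratios were above 0 for 6 of the 8 members and for 51.1% of all measured genes. The median over these 8 was 0.07, beside 0.00 over all measured genes. Leaving RBFOX2 aside, the 7 ratios ran from 0.976 to 1.15. Removing the median of genes of similar length left MBNL1, MBNL2 and RBFOX2 higher by 0.07, 0.19 and 1.36 on the log2 scale. CELF1 was then at 0.0136, QKI at -0.0132, SRSF1 at -0.0107, PTBP1 at -0.0618 and PTBP2 at -0.068. The members were chosen with their values known, so nothing is read from their shares beside those of all genes.

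The order of the members per gene length was nearly the same in both libraries. It ran from PTBP1, at 68.0 and 65.9 FPKM, through SRSF1, at 39.6 and 38.8, MBNL1, at 23.9 and 26.1, and CELF1, at 18.1 and 18.9, to QKI. The halved-count intervals of these neighbours did not overlap in either library. In the vector library MBNL2, at 2.35 FPKM, and PTBP2, at 1.88, came next and RBFOX2 was below both. In the IGF2BP3 library RBFOX2 was at 2.78 FPKM (2.60 to 2.98), within the interval of MBNL2 at 2.68 (2.40 to 2.99), and above PTBP2, still at 1.88. These levels rest on the lengths the authors used, which for SRSF1 come to 5781 bases against 3340 exon bases in GENCODE release 29, and for PTBP2 to 20122 against 12937.

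Among other splicing genes, more hnRNP and core spliceosome genes lay below 0 than above, while 51.1% of all measured genes lay above 0. The same held for 14 measured housekeeping genes, with 5 above 0, 9 below and a median log2 ratio of -0.03. By the halved-count interval, 3 of these 14 housekeeping genes lay above 1 and 4 below. Whether the lean was particular to splicing genes was not tested. Of the 13 other SR and SR-like proteins, 3 were above 0 and 10 below, with a median log2 ratio of -0.04, and SRSF12 at -0.17 and SRSF7 at -0.11 were furthest from 0. Of 21 measured hnRNP genes, which bind nascent transcripts and often repress exons, 3 were above 0 and 18 below, with a median of -0.04. HNRNPH1, which binds G-rich sequence, stood apart among them with 4138 counts in the vector library and 3263 in the IGF2BP3 library, a ratio of 0.714 (0.668 to 0.762 from halved counts). From halved counts the interval lay below 1 in 11 of the 21 hnRNP genes and above 1 in none, and in the SR list below 1 in 3 and above 1 in none. Of all measured genes, 10.9% had such an interval below 1 and 15.9% above. These shares are not like for like, since intervals narrow as counts grow. HNRNPA1, with 80571 and 86863 counts, had an interval below 1 at a ratio of 0.976 (0.963 to 0.989 from halved counts). After HNRNPH1, PCBP2 was furthest from 0 among the hnRNP genes at -0.20, and no measured SR or hnRNP gene was 1.5-fold different. Core spliceosome genes had 7 above 0 and 21 below, with a median of -0.06, from SNRPD3 at -0.13 to SF3B1 at 0.15. Of these 28 genes, 9 had the halved-count interval below 1 and 2 above. With the median of genes of similar length removed, the list medians stayed below 0. They were -0.0607 for the SR list, -0.0605 for hnRNP genes and -0.0457 for core spliceosome genes.

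The kinases that phosphorylate SR proteins had 6 of 8 above 0, with SRPK1, the main cytoplasmic SR kinase, at 0.15. Their median was 0.07, and 0.0265 with the median of genes of similar length removed. Other regulators of tissue-specific splicing had 3 of 16 above 0 and a median of -0.05. RBM47, an RNA-binding protein of epithelial cells, was the one furthest from 0, with 1437 counts, 33.2 CPM, in the vector library and 2182 counts, 45.6 CPM, in the IGF2BP3 library. Its ratio was 1.37 (1.29 to 1.47, and from halved counts up to 1.51). Relatives of the members had 4 of 6 above 0 and a median of 0.18, which was -0.03 with a minimum of 10 counts, and included CELF5 at 0.34 and KHDRBS3 at -0.30, each on 16 to 38 counts per library, KHDRBS1 (Sam68) at 0.02 and SF1 at -0.08.

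**Figure D5:**
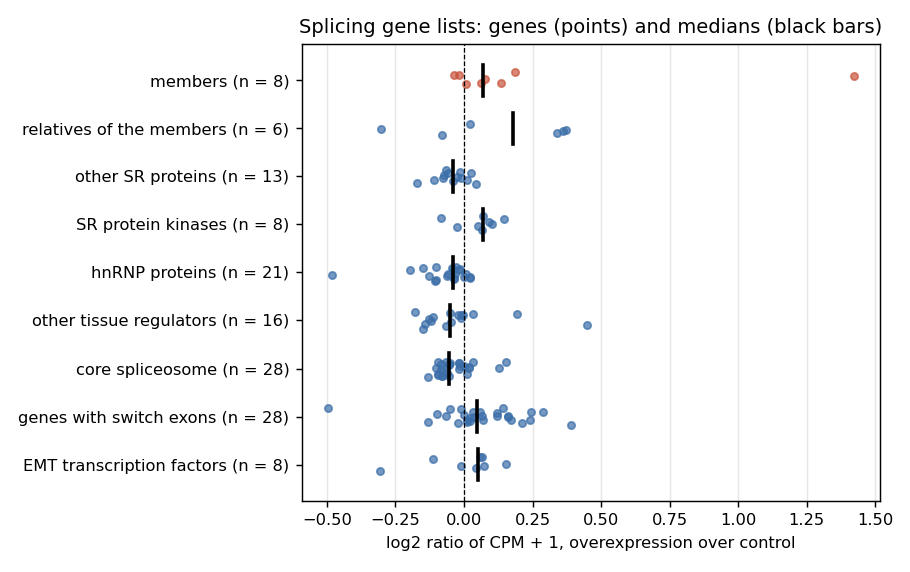
Each point is a measured gene by its log2 ratio of CPM plus 1, IGF2BP3 library over vector (x axis), in 9 lists, with black bars at the medians. List medians lie between -0.06 and 0.18, and RBFOX2, at 1.42, is the point furthest from 0.

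Genes whose exons are known to switch between the epithelial and mesenchymal forms were read at the gene level. Of 28 measured, 20 were above 0 and 8 below, beside 51.1% of all measured genes above 0, and none was 1.5-fold different. The median log2 ratio was 0.05, and 0.0158 with the median of genes of similar length removed. SCRIB, a polarity protein, was lowest, from 908 to 698 counts, a ratio of 0.696 (0.604 to 0.802 from halved counts). RALGPS2 stood at 0.39, the membrane skeleton protein EPB41 at 0.29 and the cytoskeletal linker MACF1 at 0.25. The files do not show which exons these transcripts held.

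The libraries were then set against markers of cell state. Of 20 chosen epithelial markers 13 were listed, and 9 of these were below 1 FPKM in both libraries. CDH1, which joins epithelial cells, stood at 2 counts in both and EPCAM at 57 and 56, while KRT18, DSP, LSR and MUC1 (named after their values were seen) reached 1 FPKM. All 6 listed markers of ovarian serous carcinoma, of 12 chosen, were below 1 FPKM, with PAX8 at 28 and 32 counts. These markers thus did not bear out the labelled carcinoma type, although, as with HNRNPL above, a low count here does not show that a gene was silent. Of 18 chosen mesenchymal markers 14 were listed. Of these, 9 were also below 1 FPKM in both libraries and 5 reached it, beside 4 of the 13 epithelial ones. VIM led the mesenchymal markers at 422 FPKM in the vector library and 414 in the IGF2BP3 library. The summed level of the epithelial list was 61.4 and 61.9 FPKM and that of the mesenchymal list 662 and 686 FPKM. Without S100A4, at 193 and 233 FPKM, the mesenchymal sum was 469 and 454 FPKM, of which VIM alone gave 422 and 414. The mesenchymal sum thus rests mainly on these 2 genes. The median listed gene of the mesenchymal list was at 0.577 and 0.507 FPKM, and that of the epithelial list at 0.0887 and 0.12 FPKM. Chosen markers without a row were left out of these medians, and 0 of the listed genes had no counts in both libraries. Of the 12 measured mesenchymal markers 4 were above 0 and 8 below, with a median log2 ratio of -0.04. TAGLN, a smooth muscle actin-binding protein, had a ratio of 0.814 (0.784 to 0.846 from halved counts), and the intervals of COL5A1, at 0.752, and FN1, at 0.781, held 1 from halved counts.

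The factors that set these states were read next, and 8 of 14 listed passed the count minimum. ZEB1, a repressor of ESRP1 and of other epithelial genes, was at 6.62 FPKM in the vector library and 6.79 in the IGF2BP3 library. The list pools factors of both states, such as GRHL1 and ZEB1, so its tally and median give no direction for either state. Of the 8 measured factors 5 were above 0 and 3 below, and every halved-count interval held 1. The median log2 ratio was 0.05, and 0.0003 with the median of genes of similar length removed. TWIST1, on 45 and 31 counts, was furthest from 0 at -0.31, and its plain CPM ratio was 0.624 (0.382 to 1.01).

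Of the markers of other cells, those of neurons bear on the RBFOX family. Of 12 chosen 7 were listed, with a summed level of 46.9 FPKM in the vector library and 45.0 in the IGF2BP3 library. ENO2 alone gave 42.8 and 38.9 FPKM of it, and the sum without ENO2 was 4.05 and 6.14 FPKM. MAP2, a dendritic microtubule protein, went from 28.1 to 58.5 CPM, a ratio of 2.08 (1.89 to 2.29 from halved counts), and so was higher along with RBFOX2. TUBB3 at -0.43, SYP at -0.39 and ENO2 at -0.13 were lower, and RBFOX3 had 18 and 10 counts. NCAM1, an adhesion molecule below the count minimum, had 6 and 28 counts, a ratio of 4.22 (1.18 to 22.9 from halved counts). The part of these genes in the RBFOX2 difference was not tested. The leukocyte marker PTPRC had 0 and 4 counts, and the summed leukocyte and endothelial levels were below 2 FPKM in both libraries.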

How the data were processed

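Poly(A) RNA was captured with oligo(dT) beads and made into dUTP libraries with PCR, per the labels' protocols. For each gene the authors deposited whole-number counts, FPKM and a log2 fold change, per the file headers. The submitters' processing notes name GRCh38 as build. An aligner, counter, strand setting or annotation release is not given in the sources used here.

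Libraries were scaled by TMM (edgeR 4.0.16, R 4.3.3). Differences are log2 ratios of CPM plus 1, IGF2BP3 over vector, and genes whose counts sum to at least 50 are called measured. Ratios carry 95% exact Clopper-Pearson counting intervals, which cover counting error only, since PCR reads without molecular identifiers are not independent molecules. The floor of 3 counts is 0.0692 CPM in the vector library and 0.0627 CPM in the IGF2BP3 library. The ratio and interval computation was tested on simulated data with independent Poisson counts. That test checks the arithmetic only and could not show error from PCR copies or from the excess of even counts.

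Members and lists were chosen with earlier results of these data known. Named were all members and their listed relatives, IGF2BP3, up to 4 genes furthest from 0 in each list, a few state markers, and the 5 genes nearest to RBFOX2. Positions and sequences came from GENCODE release 29 (94.2% of listed gene IDs matched). Alternatives were library totals, DESeq2 1.42.0 size factors, pseudocounts of 0.1 and 5 CPM, the authors' FPKM plus 1, other count minimums, halved counts and, added after seeing the data, removal of the median of 20 gene length bins. Python 3.11.15 was used for other steps.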

Additional observations from a re-analysis of the deposited data

How the results depend on the processing

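RBFOX2 stayed above 0 under every alternative run, from 0.92 to 1.49 on the log2 scale. It was 1.19 with a pseudocount of 5 CPM and 0.92 as the authors' FPKM plus 1, where the constant weighs more. With the length median removed, QKI was at -0.0132, MBNL1 at 0.074 and CELF1 at 0.0136. Of 48 alternative values of the 8 measured members, 44 kept their sign, and the 4 others were that of QKI and 3 of PTBP2, whose reported value was 0.01. Of 72 alternative list medians 70 kept their sign, and the other 2 are those of the relatives below.

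Genes at least 1.5-fold higher numbered 144, against 420 with a pseudocount of 0.1 CPM, 63 with 5 CPM and 76 on the scale of FPKM plus 1. Genes at least 1.5-fold lower numbered 91, against 328, 37 and 50 under the same alternatives and 53 with a minimum of 200 counts. Genes at least 2-fold different numbered 96, against 209, 39 and 44. The median of the members' relatives, 0.18, was 0.058 with a pseudocount of 5 CPM, 0.0454 as FPKM plus 1, -0.03 with a minimum of 10 counts and -0.0475 with none.

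No paired analysis was possible because each group has 1 library, so that leaving a library out was not possible either. Without replicates, a culture effect and an effect of IGF2BP3 cannot be told apart.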

Other observations

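RBFOX2 was also read against RNA-binding and splicing genes at large, gathered from the descriptions in the deposited table after the values of the members had been seen. Of 223 such measured genes, 92 were above 0 and 131 below, beside 51.1% of all measured genes above 0. The median log2 ratio of the 223 was -0.02. RBFOX2, at 1.42, was the highest of them. IGF2BP3, the gene overexpressed on purpose, was the only other at least 1.5-fold different in either direction on this scale. Of all measured genes, 1.66% passed that fold in either direction. Since RBFOX2 was chosen with its value known, nothing is read from its rank. By the plain CPM ratio, without the added 1 CPM, 7 of the 223 passed 1.5-fold, a share that was not computed over all measured genes. These were also CELF5, with 16 and 35 counts, and the pseudogenes SF3A3P2, RBM17P1, HNRNPA1P59 and SERBP1P6, and for each of these 5 the halved-count interval held 1.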
